A study of Danio rerio with 6 samples.

Results

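Lysosomal cathepsins and legumain are the proteases that digest proteins inside lysosomes, and 9 of their genes were followed here among the 34289 genes in the count tables. The members were ctsd, lgmn, ctsba, ctsla, ctsf, ctsc, ctsh, ctsz and ctsa, found in the tables by Ensembl identifier and zebrafish symbol, with ctsk set aside as an osteoclast marker. They were chosen on results of the same comparison that is described below, so their differences between the groups are a description and carry no p-value. All 9 passed the filter on low counts.

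The libraries are bulk RNA sequencing of osteoblasts, the bone-forming cells, from zebrafish scales that were regrowing on day 4 after plucking. The fish carried a pair of reporters under osx (osterix, sp7) regulatory sequence: H2A-mCherry, which labels nuclei of osx-expressing cells, and Venus-hGeminin, a fusion with geminin, a protein that accumulates after the start of DNA replication and is degraded at the end of mitosis. Live cells positive for H2A-mCherry were sorted into a Geminin-positive gate, with 3 libraries, and a Geminin-negative gate, also with 3. Every cell in both groups came from fish with both reporters, from about 50 plucked scales a side in 3 rows, with about 3 to 5 fish pooled a sample and digestion in Liberase, a collagenase blend, for 1 h. A gate on an osx-driven protein keeps any cell that holds that protein, whatever else it expresses, and pooling hides differences between fish. The sample titles call the Geminin-positive gate high Erk activity, while the series' design text describes the Geminin signal as anti-correlated with Erk activity, so the gates give the groups their names and Erk activity is not read from them. Nothing in the labels says that replicates were separate cultures or litters beyond the pools of fish, so p-values measure the spread between these pooled samples.

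Cathepsins are made as inactive precursors, carried to the lysosome largely by mannose 6-phosphate tags, and activated there by cleavage in the acid lumen. They differ in chemistry and in where they cut: cathepsin D is an aspartic endopeptidase, cathepsins B, L, F, C, H and Z are papain-like cysteine peptidases, legumain is a cysteine endopeptidase that cuts after asparagine, and cathepsin A is a serine carboxypeptidase. Phagocytes and bone-resorbing osteoclasts are rich in these enzymes, and osteoblasts use them in the turnover of internalised matrix and of their own organelles.

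Library totals ranged from 16482720 to 19087246 counts in the Geminin-positive gate and from 15854710 to 34472612 counts in the Geminin-negative gate, and between 11977 and 17875 genes had a count. Transcripts of endogenous gmnn (geminin), the natural counterpart of the sorted reporter, averaged 1556 ± 66.7 CPM in Geminin-positive and 398 ± 30.4 CPM in Geminin-negative libraries (SD, n = 3 each). Here CPM is the count relative to the library's total over the genes that passed the low-count filter, multiplied by 1e6, after edgeR's TMM scaling. The log2 fold change of gmnn, Geminin-positive over Geminin-negative, was 1.97 ± 0.21 (SE, adjusted p = 0.0106, edgeR quasi-likelihood test with Benjamini-Hochberg adjustment). The transcript of the transgene itself is not a row of the tables.

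Summed over the 9 genes, transcripts of these proteases were less abundant in the Geminin-positive gate. They held 0.0813%, 0.0695% and 0.0755% of all counts in Geminin-positive replicates 1, 2 and 3, against 0.306%, 0.220% and 0.388% in Geminin-negative replicates 1, 2 and 3. After scaling, the sum was 892 ± 56.8 CPM in Geminin-positive and 2563 ± 522 CPM in Geminin-negative libraries (SD, n = 3 each). The groups did not overlap in this sum, and the Geminin-negative libraries spread more widely. In bulk samples, fewer cells of a type and less RNA per cell cannot be told apart.

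The genes did not follow a common pattern. In 6 of the 9 (lgmn, ctsd, ctsz, ctsc, ctsh and ctsba) every Geminin-positive library was below every Geminin-negative library, and in the other 3 (ctsla, ctsa and ctsf) the groups overlapped. Among all 12855 genes tested, 10.3% were non-overlapping in this direction. The log2 fold changes (Geminin-positive over Geminin-negative, edgeR) were negative for all 9, with a median of -1.32, beside a median of -0.01 over all genes tested, and 5 members lay under -1, as did 19.9% of all genes. Of the members, 2 (ctsd and lgmn) were past an adjusted p of 0.05 in the lower direction and 0 in the higher, and 0.482% of all genes were called lower. Because the members were selected on this contrast, nothing is read from their counts against these shares. The 2 calls depended on single libraries. Without Geminin-positive replicate 1 the calls were ctsz and lgmn, without Geminin-positive replicate 2 ctsc alone, without Geminin-negative replicate 1 or 2 lgmn alone, and without replicate 3 of either gate 0 members were called.

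**Figure D1:**
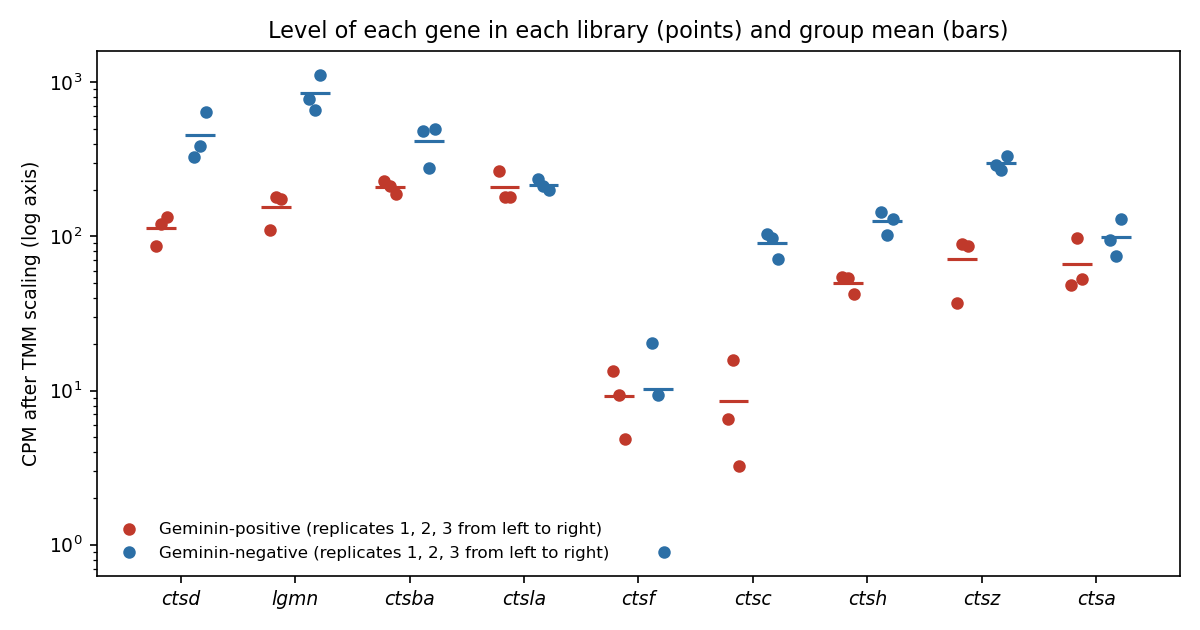
Level of each gene in every library, in CPM after TMM scaling on a log axis; points are replicates 1, 2 and 3 of the Geminin-positive (red, left) and Geminin-negative (blue, right) gates, and bars are group means. The red points of ctsd, lgmn, ctsba, ctsc, ctsh and ctsz all lie below the blue ones, while those of ctsla, ctsf and ctsa mix with them.

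Legumain and cathepsin D are the endopeptidases of non-papain families. They were the 2 members called by edgeR, but these calls do not set that class apart. The papain-like ctsz and ctsc, not called, had log2 fold changes of -2.06 ± 0.36 and -3.41 ± 0.59 (SE). Legumain, which in mammals also trims cathepsins B, H and L into their mature chains, is encoded by lgmn (ENSDARG00000039150, chromosome 13, 35913844 to 35924495, danRer10, 14 exon blocks). Its level was 110, 179 and 176 CPM in Geminin-positive replicates 1, 2 and 3, against 779, 656 and 1120 CPM in Geminin-negative replicates 1, 2 and 3. The lowest Geminin-negative library was thus well above the highest Geminin-positive one, and the coefficient of variation within the gates was 25.2% in Geminin-positive and 28.2% in Geminin-negative libraries. The Geminin-positive mean was 18.2% of the Geminin-negative mean, a log2 fold change of -2.46 ± 0.31 (SE). These means rest on 1731 to 2808 counts a library in the Geminin-positive gate and 15233 to 24897 counts in the Geminin-negative gate.

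Cathepsin D, the main aspartic protease of the lysosome, is encoded by ctsd (ENSDARG00000057698, chromosome 18, 16144529 to 16157015, 10 exon blocks). It was measured at 86.5, 120 and 133 CPM in Geminin-positive replicates 1, 2 and 3, against 330, 387 and 645 CPM in Geminin-negative replicates 1, 2 and 3. Replicate 3 was the highest library of each gate, and the groups stayed apart. The means were 113 ± 23.9 CPM in Geminin-positive and 454 ± 168 CPM in Geminin-negative libraries (SD, n = 3 each), and the log2 fold change was -2.01 ± 0.33 (SE).

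Among the papain-like endopeptidases, 1 gene differed between the gates without overlap and the other 2 did not. Cathepsin B, an endopeptidase that also removes dipeptides from the carboxyl end, is encoded by ctsba (ENSDARG00000055120, chromosome 17, 32670420 to 32679003, 9 exon blocks). It reached 229, 211 and 189 CPM in Geminin-positive replicates 1, 2 and 3, against 484, 277 and 494 CPM in Geminin-negative replicates 1, 2 and 3. Geminin-negative replicate 2 was nearest to the Geminin-positive libraries but above all of them. The log2 fold change was -0.997 ± 0.28 (SE). Exon bases of ctsba are shared with cgref1 on the opposite strand, which averaged 835 ± 316 CPM in Geminin-positive and 274 ± 61.1 CPM in Geminin-negative libraries (SD, n = 3 each). The strand setting of the counting is not given in the sources used here, so the share of reads that either gene took from the other is uncertain.

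Cathepsin L, a broad endopeptidase of the lysosome, is encoded by ctsla (ENSDARG00000007836, chromosome 5, 44204638 to 44210767, 7 exon blocks). Its levels were 266, 181 and 180 CPM in Geminin-positive replicates 1, 2 and 3, against 237, 212 and 201 CPM in Geminin-negative replicates 1, 2 and 3. All Geminin-negative libraries lay inside the range of the Geminin-positive ones. The means, 209 ± 49.5 CPM in Geminin-positive and 216 ± 18.2 CPM in Geminin-negative libraries (SD, n = 3 each), differed by less than the spread between replicates, and the log2 fold change was -0.05 ± 0.25 (SE).

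Cathepsin F, a less studied member of the papain family, is encoded by ctsf (ENSDARG00000063095, chromosome 14, 6834588 to 6858237, 14 exon blocks) and was among the rarest members. It had 13.5, 9.30 and 4.83 CPM in Geminin-positive replicates 1, 2 and 3, against 20.3, 9.39 and 0.900 CPM in Geminin-negative replicates 1, 2 and 3. The Geminin-negative gate held both the highest and the lowest library, replicate 3 having only 20 counts, and the log2 fold change of -0.15 ± 1.099 (SE) had an error larger than itself. Exon bases of ctsf are shared with trpt1 on the opposite strand, which had 1, 0 and 0 counts in Geminin-positive replicates 1, 2 and 3 and 114, 274 and 313 counts in Geminin-negative replicates 1, 2 and 3.

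The 4 remaining members cut from the ends of proteins, and 3 of them did not overlap between the gates. Cathepsin C, a dipeptidyl peptidase that in mammals activates the granule serine proteases of neutrophils and mast cells, is encoded by ctsc (ENSDARG00000101334, chromosome 15, 43682730 to 43704643, 8 exon blocks). It was at 6.54, 15.8 and 3.26 CPM in Geminin-positive replicates 1, 2 and 3, against 103, 97.7 and 71.5 CPM in Geminin-negative replicates 1, 2 and 3. This was the largest fold difference of the 9, with a Geminin-positive mean at 9.39% of the Geminin-negative mean and a log2 fold change of -3.41 ± 0.59 (SE). The Geminin-positive libraries held only 52 to 219 counts of ctsc, and their coefficient of variation was 76.2%, beside 18.7% in the Geminin-negative libraries.

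Cathepsin Z, a carboxypeptidase also called cathepsin X, is encoded by ctsz (ENSDARG00000043081, chromosome 6, 49772719 to 49782709, 7 exon blocks). It had 37.1, 89.0 and 87.0 CPM in Geminin-positive replicates 1, 2 and 3, against 292, 270 and 330 CPM in Geminin-negative replicates 1, 2 and 3. Geminin-positive replicate 1 was low among its own group, and the log2 fold change was -2.06 ± 0.36 (SE).

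Cathepsin H, the aminopeptidase of the group, is encoded by ctsh (ENSDARG00000041108, chromosome 18, 26437606 to 26444007, 12 exon blocks). It had 54.4, 53.4 and 42.3 CPM in Geminin-positive replicates 1, 2 and 3, against 144, 102 and 129 CPM in Geminin-negative replicates 1, 2 and 3. Its replicates were tight in both gates, with coefficients of variation of 13.4% in Geminin-positive and 16.8% in Geminin-negative libraries, and its log2 fold change was -1.32 ± 0.28 (SE).

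Cathepsin A, which in mammals also shields beta-galactosidase and neuraminidase from degradation, is encoded by ctsa (ENSDARG00000098114, chromosome 6, 55386994 to 55411507, 21 exon blocks). It had 48.0, 98.1 and 52.9 CPM in Geminin-positive replicates 1, 2 and 3, against 94.1, 74.1 and 130 CPM in Geminin-negative replicates 1, 2 and 3. Geminin-positive replicate 2 stood above 2 of the 3 Geminin-negative libraries, and the log2 fold change of -0.58 ± 0.37 (SE) was not past the threshold.

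Because the members differed unequally, the mix of proteases was not the same in the gates, and this mix does not depend on library scaling. Legumain made up 17.3% ± 3.88 of the members' counts in Geminin-positive and 32.9% ± 2.59 in Geminin-negative libraries (SD, n = 3 each). Cathepsin L made up 23.6% ± 6.67 in Geminin-positive and 8.71% ± 1.99 in Geminin-negative libraries. Cathepsin B made up 23.6% ± 2.90 in Geminin-positive and 16.2% ± 3.12 in Geminin-negative libraries. Legumain was thus the leading member in the Geminin-negative gate, while by mean share cathepsins L and B led in the Geminin-positive gate. The lead of cathepsin L over legumain there came mostly from replicate 1, at 31.3% against 12.9%. In Geminin-positive replicate 2 the shares were 18.9% and 18.7%, and in replicate 3 they were 20.8% and 20.3%. Cathepsin C took 0.931% ± 0.653 in Geminin-positive and 3.71% ± 1.26 in Geminin-negative libraries. Cathepsin F took 1.04% ± 0.516 in Geminin-positive and 0.432% ± 0.395 in Geminin-negative libraries. The shares of ctsc and ctsf overlapped in the Geminin-positive gate. These shares come from the same contrast that chose the genes and are given as a description.

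Levels of different genes were compared per kilobase of exonic length, on the scale of CPM per kb. In the Geminin-positive gate the order by mean log2 level was ctsla, ctsba, lgmn, ctsd, ctsh, ctsa, ctsz, ctsf and ctsc. In the Geminin-negative gate it was lgmn, ctsd, ctsba, ctsz, ctsla, ctsh, ctsa, ctsc and ctsf. Cathepsin L had rank 1 in the Geminin-positive gate at 100 ± 23.7 CPM per kb and rank 5 in the Geminin-negative gate at 104 ± 8.75 CPM per kb (SD, n = 3 each). That rank 1 did not hold in Geminin-positive replicate 2, where ctsla was at 86.8 and ctsba at 88.9 CPM per kb. In Geminin-positive replicate 1 they were at 128 and 96.5 CPM per kb, and in replicate 3 at 86.5 and 79.5 CPM per kb. Legumain had rank 3 in the Geminin-positive gate at 64.7 ± 16.3 CPM per kb and rank 1 in the Geminin-negative gate at 355 ± 100 CPM per kb. The level of ctsla itself was nearly equal in the gates, and lgmn, ctsd, ctsba and ctsz lay above it in the Geminin-negative order. At the low end, ctsc had 2.40 ± 1.83 CPM per kb in Geminin-positive and 25.6 ± 4.77 CPM per kb in Geminin-negative libraries, and ctsf had 2.74 ± 1.29 CPM per kb in Geminin-positive and 3.04 ± 2.90 CPM per kb in Geminin-negative libraries.

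Over all 6 libraries the order was lgmn, ctsba, ctsd, ctsla, ctsz, ctsh, ctsa, ctsc and ctsf. Of its 8 neighbour pairs, only ctsa above ctsc held in 6 of 6 libraries, with a mean log2 ratio of 2.40 ± 1.79 (SD) and an exact two-sided sign-flip permutation p of 0.0313, the smallest that 6 libraries can give. After Benjamini-Hochberg adjustment over the 8 pairs that p was 0.25, and no pair passed (adjusted exact permutation p from 0.25 to 0.906). Adjusted over 8 pairs, this smallest p passes only if several pairs reach it, so the test does not show that neighbours have equal levels. The spread of each ratio also holds the difference between the gates, as for ctsa over ctsc, whose mean log2 ratio was 3.93 in Geminin-positive and 0.86 in Geminin-negative libraries. The other 7 pairs were in the pooled order in 3 to 5 of the 6 libraries. Within a gate, 3 pairs of the pooled order held in all 3 Geminin-positive libraries and 6 in all 3 Geminin-negative libraries. Those counts could not be below the pooled 1 and have no test.

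**Figure D2:**
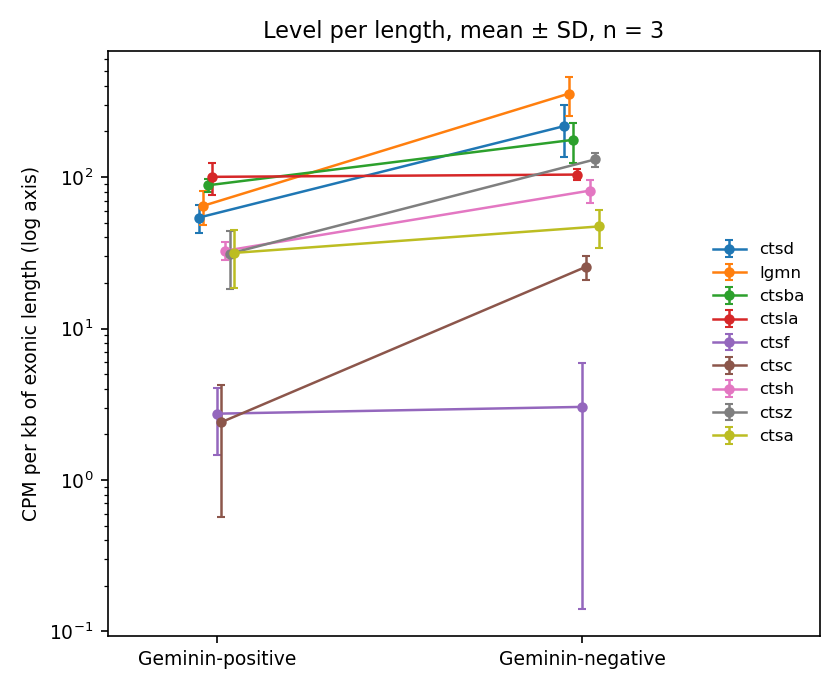
Level per length of each gene, in CPM per kb of exonic length on a log axis, as mean ± SD of 3 libraries in the Geminin-positive (left) and Geminin-negative (right) gates. The line of ctsla is nearly flat, at 100 CPM per kb in Geminin-positive and 104 CPM per kb in Geminin-negative libraries, while lgmn, at 64.7 CPM per kb on the left, is the highest of the 9 on the right, at 355 CPM per kb.

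Within the gates, members did not all vary together. Over 36 pairs of members, the Pearson r of deviations from the gate means over the 6 libraries had a median of 0.08 and ran from -0.95 to 0.87, with 22 pairs above 0. The pair ctsd and lgmn had r = 0.87 and ctsh and ctsba had r = 0.87, whereas ctsz and ctsla had r = -0.95. These values describe 6 libraries that share scaling and depth and were not tested. Among the Geminin-negative libraries, replicate 3 was the highest for 5 members and replicate 1 for 4, and replicate 2, the deepest library, was the lowest for 5.

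Each member's log2 CPM was also set against the mean of the standardised values of the other 8 over the 6 libraries, which fall into the 2 gates. By this measure ctsh (r = 0.995) and ctsc (r = 0.954) lay nearest the profile of the others and ctsla (r = 0.101) and ctsf (r = -0.25) farthest from it. Outside the members, each gene was set against the mean profile of all 9, and the 10 named genes of highest r among 5775 candidates with a mean of at least 10 CPM were krt18b, ppt1, ccl35.1, cxcl8a, MFAP4, tsg101b, ogna, sdcbp2, mlf1 and crip1, with r from 0.979 to 0.991. Several passed that minimum through the Geminin-negative libraries: ogna had 0, 1 and 0 counts and MFAP4 3, 3 and 1 counts in Geminin-positive replicates 1, 2 and 3, cxcl8a averaged 3.01 CPM and ccl35.1 3.73 CPM there. As the members were selected on the gates, this likeness is not independent of the difference between the gates. The first, krt18b, encodes a keratin of simple epithelia and averaged 74.3 ± 31.4 CPM in Geminin-positive and 580.3 ± 143 CPM in Geminin-negative libraries (SD, n = 3 each). The second, ppt1, a lysosomal thioesterase, averaged 79.8 ± 6.98 CPM in Geminin-positive and 159 ± 18.2 CPM in Geminin-negative libraries. The MFAP4 row is 1 of a cluster of neighbouring rows with that name, between which reads may be divided.

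Other proteases of the lysosome spanned a wide range. Of 13 listed, 10 were tested, and 1 fell and 0 rose. Both ctsl.1 and ctss2.2 passed the low-count filter through the Geminin-negative libraries. The counts of ctss2.2 were 9, 5 and 0 in Geminin-positive replicates 1, 2 and 3. No median or count of signs is therefore drawn from this list. The gene that fell was ctsk, cathepsin K, the collagen-degrading protease of osteoclasts, at 57.4 ± 17.9 CPM in Geminin-positive and 260.2 ± 13.2 CPM in Geminin-negative libraries (log2 fold change -2.18 ± 0.31, SE, adjusted p = 0.0271, edgeR). Below the threshold (edgeR adjusted p = 0.0519), ctsl.1, another cathepsin L gene, had 0 counts in all 3 Geminin-positive libraries. It had 536, 283 and 419 counts in Geminin-negative replicates 1, 2 and 3, so it passed the low-count filter through those libraries alone. No fold difference is given for ctsl.1, as it would rest on the 0 counts. Tripeptidyl peptidase tpp1 averaged 12.3 ± 5.49 CPM in Geminin-positive and 65.0 ± 9.12 CPM in Geminin-negative libraries (edgeR adjusted p = 0.0549), and the cathepsin S gene ctss2.1 averaged 2.77 ± 0.925 CPM in Geminin-positive and 23.6 ± 11.4 CPM in Geminin-negative libraries (edgeR adjusted p = 0.124). Rows of ctsbb and ctslb, the second copies of cathepsins B and L, had 0 counts in all 6 libraries.

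Inhibitors, carriers and cofactors of the cathepsins were looked at next. Of 6 listed cystatins, the natural inhibitors of papain-like cathepsins, 3 were found and tested and 0 passed. The most abundant, cst3 (cystatin C), averaged 143 ± 55.4 CPM in Geminin-positive and 243 ± 73.6 CPM in Geminin-negative libraries, with overlapping groups (edgeR adjusted p = 0.628). Of 15 genes of mannose 6-phosphate sorting and lysosomal cofactors, 12 were tested, 1 fell and 0 rose. The counts of grna were 5, 302 and 434 in Geminin-positive replicates 1, 2 and 3, against 3867, 4359 and 5031 in the Geminin-negative ones. It needed the Geminin-negative libraries to pass the low-count filter, so no median is drawn from this list. The gene that fell was psap, prosaposin, the precursor of sphingolipid activators, at 155 ± 51.7 CPM in Geminin-positive and 956 ± 39.4 CPM in Geminin-negative libraries (log2 fold change -2.63 ± 0.31, SE, adjusted p = 0.0182, edgeR). The mannose 6-phosphate receptor m6pr averaged 7.45 ± 9.46 CPM in Geminin-positive and 17.3 ± 2.49 CPM in Geminin-negative libraries (edgeR adjusted p = 1.00).

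Among 32 listed lysosomal hydrolases of other substrates, 26 were tested, 2 fell and 0 rose. One of them, manba, had 3, 0 and 1 counts in Geminin-positive replicates 1, 2 and 3. It passed the low-count filter through the Geminin-negative libraries, so no median or count of signs is drawn from this list. The glycosidase gene naga averaged 7.13 ± 4.01 CPM in Geminin-positive and 89.0 ± 4.77 CPM in Geminin-negative libraries (log2 fold change -3.64 ± 0.54, SE, and adjusted p = 0.0321 by edgeR). The fucosidase gene fuca2 averaged 42.1 ± 12.4 CPM in Geminin-positive and 172 ± 45.4 CPM in Geminin-negative libraries (log2 fold change -2.03 ± 0.34, SE, and adjusted p = 0.0471 by edgeR). Of 18 listed membrane proteins of the lysosome, 16 were tested, 1 fell and 0 rose. The counts of cln3 were 80, 126 and 0 in Geminin-positive replicates 1, 2 and 3, against 115, 335 and 404 in the Geminin-negative ones. It needed the Geminin-negative libraries to pass the low-count filter, so no median is drawn here either. The tetraspanin gene cd63 was the one that fell, at 98.8 ± 11.6 CPM in Geminin-positive and 383 ± 51.1 CPM in Geminin-negative libraries (log2 fold change -1.96 ± 0.24, SE, and adjusted p = 0.0198 by edgeR). For lamp2, an abundant membrane glycoprotein of lysosomes, the means were 45.8 ± 5.73 CPM in Geminin-positive and 84.7 ± 21.2 CPM in Geminin-negative libraries (edgeR adjusted p = 0.333).

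The V-ATPase is the proton pump that acidifies the lysosome and is needed for cathepsin activity. Of 24 listed subunits 19 were tested and 0 passed in either direction by edgeR. Among them atp6v1c1b had 0 counts in Geminin-positive replicate 1. Its means were 3.60 ± 3.12 CPM in Geminin-positive and 14.8 ± 7.75 CPM in Geminin-negative libraries (SD, n = 3 each). It needed the Geminin-negative libraries to pass the low-count filter, so no median or count of signs is drawn from this list. Without TMM scaling, the subunits took 0.0639% to 0.0733% of all counts in Geminin-positive and 0.0980% to 0.132% in Geminin-negative libraries. The MiT/TFE transcription factors, which in mammals drive lysosomal genes, were rare, and 2 of 6 could be tested. The counts of tfeb were 0, 16 and 0 in Geminin-positive replicates 1, 2 and 3, against 167, 208 and 251 in Geminin-negative replicates 1, 2 and 3 (edgeR adjusted p = 0.658). The other tested factor, tfe3a, had a log2 fold change of -0.03 ± 1.88 (SE). The row of tfec had 0 counts in the Geminin-positive libraries and 246, 6 and 28 counts in Geminin-negative replicates 1, 2 and 3, so replicate 1 held most of them.

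Over all 114 of these other lysosomal genes, 88 were tested, 5 fell and 0 rose (edgeR, adjusted p under 0.05). Of all 12855 genes tested, 0.482% were called lower. At an unadjusted p under 0.05 (edgeR) there were 17 lower and 0 higher. The 17 include genes that needed the Geminin-negative libraries to pass the low-count filter, such as ctsl.1 and manba. Of all genes, 1209 had such a p in either direction, and the share in the lower direction was not computed. The lists were chosen with earlier results of these data known, so nothing is read from these counts. Some genes, such as ctsl.1, ctss2.2 and manba, passed the low-count filter through the Geminin-negative libraries. No median or count of signs is therefore drawn from the 88. The 5 were unequally firm: psap passed under all 11 alternative settings (adjusted p from 1.27e-15 to 0.0485), cd63 under 8 (9.48e-14 to 0.0720), naga under 7 (5.44e-10 to 0.0941), ctsk under 6 (1.85e-09 to 0.0895) and fuca2 under 5 (1.13e-05 to 0.129). Without Geminin-positive replicate 1 fuca2 was lost and grna and tpp1 were added, without Geminin-positive replicate 2 or Geminin-negative replicate 3 only psap passed, without Geminin-positive replicate 3 the calls were asah1b, naga and psap, and without Geminin-negative replicate 1 or 2 they were cd63 and psap.

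**Figure D3:**
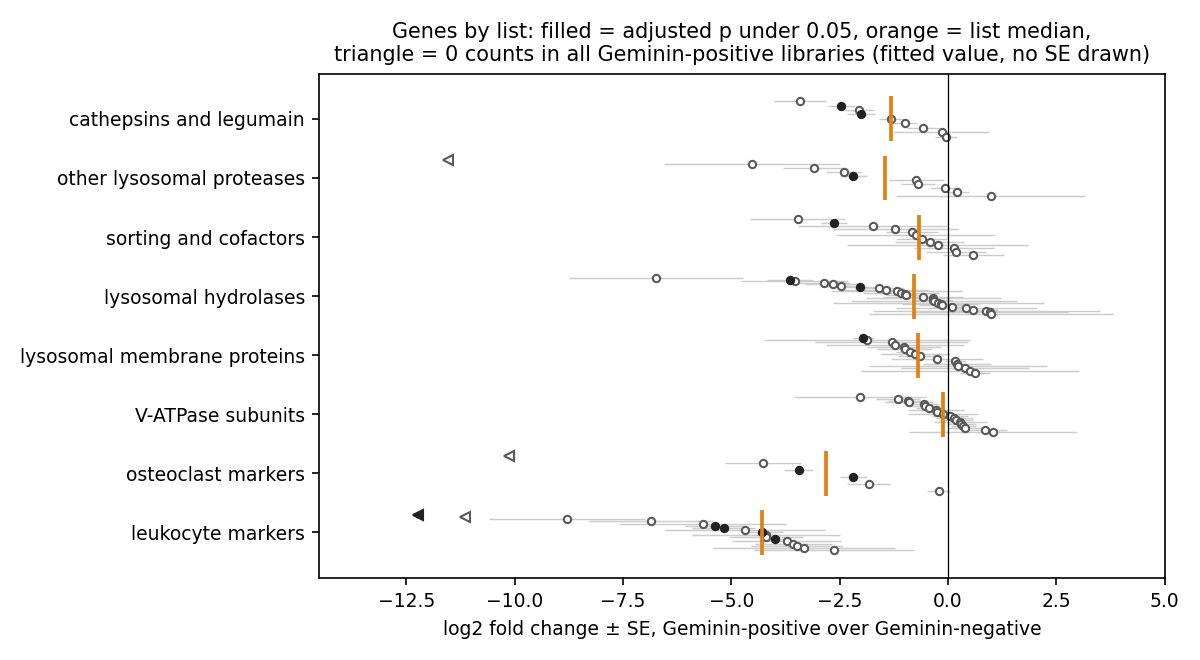
Log2 fold change ± SE, Geminin-positive over Geminin-negative, of each tested gene of 8 lists; filled points passed an adjusted p of 0.05 (edgeR), orange bars are list medians, and triangles are genes with 0 counts in all Geminin-positive libraries, whose fitted value depends on the prior count. The median is -1.32 for the cathepsins and legumain. In each of the other lists drawn, some genes needed the Geminin-negative libraries to pass the low-count filter. The medians of those lists are not read.

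As sets, the leukocyte and the osteoclast markers also held a smaller share of counts in the Geminin-positive gate. Of 23 leukocyte markers 17 were tested, and 5 fell (coro1a, laptm5, cd74a, cd74b and c1qc, by edgeR) and 0 rose. Of all 12855 genes tested, 0.482% were called lower. The marker lists were chosen with earlier results of these data known, so nothing is read from their counts of calls. In the Geminin-positive gate 6 of the 17 averaged under 1 CPM, and these passed the low-count filter through the Geminin-negative libraries. Others also had few or 0 counts in some Geminin-positive libraries, such as laptm5 with 6, 28 and 29 counts in replicates 1, 2 and 3. No median or count of signs is drawn from the list. Under all 11 alternatives cd74a and cd74b, the invariant chains of MHC class II, stayed called (highest adjusted p 0.0478 and 0.0158, edgeR or DESeq2). The call of coro1a was lost when any 1 Geminin-negative library was left out (highest adjusted p 0.0919), that of c1qc without Geminin-positive replicate 2 or Geminin-negative replicate 1 or 3 (0.0648), and that of laptm5 when any 1 library other than Geminin-positive replicate 1 was left out (0.0907). The list took 0.0067%, 0.0170% and 0.0136% of all counts in Geminin-positive replicates 1, 2 and 3, against 0.327%, 0.269% and 0.430% in Geminin-negative replicates 1, 2 and 3. Of the 21 markers found, 4 (coro1a, mpeg1.2, cxcr3.2 and lck) were at 0 in every Geminin-positive library and 0 were at 0 throughout the Geminin-negative gate. The share of all genes at 0 throughout a gate was not computed. The order of the Geminin-negative libraries in the leukocyte share of counts, with replicate 3 first and replicate 2 last, was also their order in the members' share. The order was not particular to these 2 sets. Other proteases, sorting genes and cofactors, hydrolases and V-ATPase subunits had it too, while cystatins, lysosomal membrane proteins and osteoclast markers did not. In the Geminin-positive gate the orders of members and leukocyte markers differed: replicate 1 held the largest members' share and the smallest leukocyte share.

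Of 11 osteoclast markers 6 were tested, and 2 fell (ctsk and itgb3b, by edgeR) and 0 rose, beside 0.482% of all genes called lower. The gene ctsk is also in the list of other lysosomal proteases, so its call is the same one given there. The integrin gene itgb3b stayed called under all 11 alternatives (highest adjusted p 0.0319). The osteoclast markers took 0.0308%, 0.0280% and 0.0423% of counts in Geminin-positive replicates 1, 2 and 3, against 0.107%, 0.116% and 0.136% in Geminin-negative replicates 1, 2 and 3. Most of the list's counts in the Geminin-positive gate were from tnfrsf11a, with 3499, 4156 and 5886 in replicates 1, 2 and 3. That gene overlapped between the gates, at 297 ± 73.4 CPM in Geminin-positive and 345 ± 55.8 CPM in Geminin-negative libraries (log2 fold change -0.22 ± 0.27, SE). Among the 9 found, acp5b, ocstamp and calcr were at 0 in every Geminin-positive library. In Geminin-negative replicates 1, 2 and 3 acp5b had 1, 19 and 50 counts, ocstamp 84, 228 and 214, and calcr 18, 0 and 0. The share of all genes at 0 throughout the Geminin-positive gate was not computed, so nothing is read from these rows. Keratinocyte markers took 0.0538% to 0.0838% of counts in Geminin-positive and 0.103% to 0.522% in Geminin-negative libraries, with 0 of 9 tested genes called by edgeR. The counts of evpla were 43, 3 and 46 in Geminin-positive replicates 1, 2 and 3, against 59, 513 and 576 in the Geminin-negative ones. It needed the Geminin-negative libraries to pass the low-count filter, so no count of signs is drawn from the keratinocyte list. Pigment cell markers were at very low levels, with a higher mean share in the Geminin-positive gate and overlapping groups, and 0 of 10 could be tested. They took 0.000188%, 0.00167% and 0.00270% of counts in Geminin-positive replicates 1, 2 and 3, against 0.000132%, 0.000653% and 0% in Geminin-negative replicates 1, 2 and 3. Among them gch2 had 5, 230 and 495 counts in Geminin-positive replicates 1, 2 and 3 and 2, 0 and 0 counts in Geminin-negative replicates 1, 2 and 3. The part of leukocytes, osteoclasts, keratinocytes or pigment cells in the members' differences was not tested.

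Osteoblast markers were abundant in both gates. The 11 osteoblast markers found took 18.9%, 27.0% and 21.8% of counts in Geminin-positive replicates 1, 2 and 3, against 9.91%, 17.5% and 11.4% in Geminin-negative replicates 1, 2 and 3. Of 10 tested, 5 log2 fold changes were negative and 5 positive, with a median of -0.10. Most of the list's counts were from the collagen genes col1a1a, col1a2 and col10a1a. On the negative side col10a1a had -0.64 ± 0.38, spp1 -0.71 ± 0.34, entpd5a -0.54 ± 0.38, runx2a -0.66 ± 0.84 and runx2b -0.22 ± 0.48 (log2 fold change ± SE, none past the threshold). On the positive side, beside col1a1a and sp7, col1a2 had 2.15 ± 0.39, alpl 1.12 ± 0.60 and phex 0.02 ± 0.26 (also not past the threshold). By the test, 1 (col1a1a, a chain of type I collagen) rose and 0 fell by edgeR, a call lost when any 1 library other than Geminin-positive replicate 1 was left out (highest adjusted p 0.143). Of all 12855 genes tested, 16 were called higher. The gene sp7 itself averaged 200.3 ± 63.3 CPM in Geminin-positive and 112 ± 34.8 CPM in Geminin-negative libraries (SD, n = 3 each, edgeR adjusted p = 0.464).

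**Figure D4:**
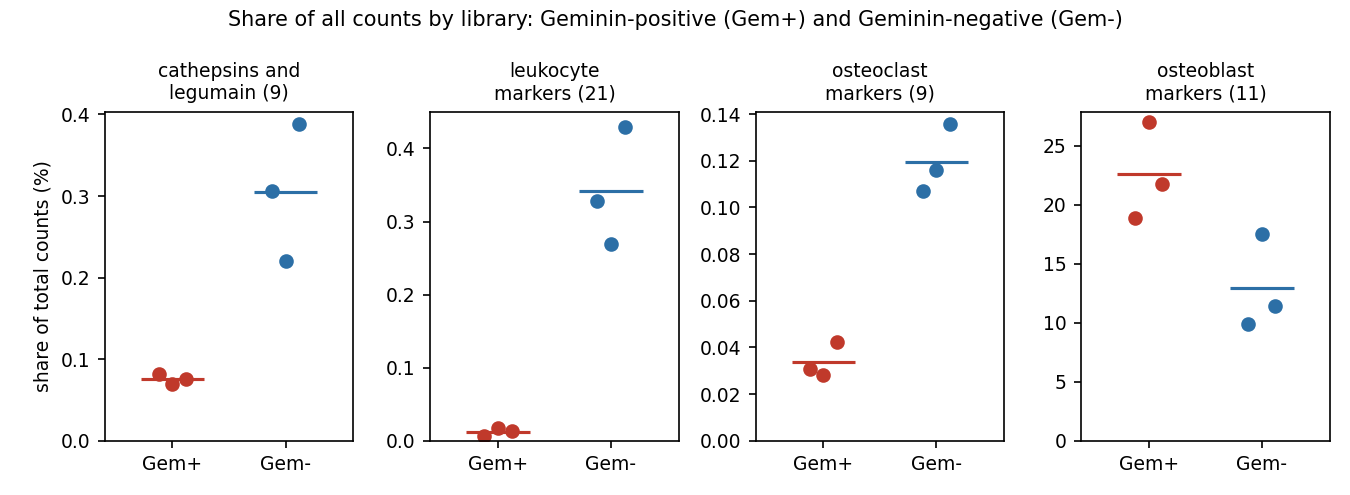
Share of all counts, in percent, taken by the 9 cathepsin and legumain genes and by the leukocyte, osteoclast and osteoblast markers found, in each library of the Geminin-positive (red, left) and Geminin-negative (blue, right) gates, with means as bars. The first 3 sets are higher in all Geminin-negative libraries. The osteoblast markers range from 18.9% to 27.0% in Geminin-positive and from 9.91% to 17.5% in Geminin-negative libraries. These shares are without TMM scaling. By the same measure the V-ATPase subunits, not drawn, took 0.0639% to 0.0733% in Geminin-positive and 0.0980% to 0.132% in Geminin-negative libraries.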

How the data were processed

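Bulk RNA sequencing libraries of sorted zebrafish scale osteoblasts, 3 Geminin-positive and 3 Geminin-negative, were analysed from the authors' deposited tables of raw read counts per gene, which also give the exonic length of each gene. The submitters' processing notes list featureCounts 1.6.1, TopHat2 2.1.1, Trim Galore 0.4.1 and, as build, danRer10. Strand handling and annotation release were not given in the sources used here. Symbols for 26790 of 34289 identifiers came from a table of gene names. Of the members, 8 matched exactly and ctsba by its base name and chromosomal neighbours.

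Counts were fitted in edgeR 4.0.16 (R 4.3.3) with filterByExpr, TMM and robust quasi-likelihood tests on the gate alone, with Benjamini-Hochberg adjustment over 12855 genes; the script was tested on simulated data. CPM were computed from the same scaling, and levels between genes were divided by exonic length. The SE of a log2 fold change was its absolute value divided by the square root of the quasi-likelihood F statistic. Neighbours in the order of levels were compared by an exact sign-flip permutation test over the 6 libraries. No library repeated another (chi-square over degrees of freedom of at least 85.0 in each pair). The members and gene lists were chosen with earlier results of these data known. Besides all members and gmnn, the genes named were those of each list past the threshold or among its smallest p, those holding 0 counts, and the 10 nearest the members' profile. Named after their values were seen were tfec, ctsbb, ctslb, ctss2.2, manba, tnfrsf11a, m6pr, lamp2, sp7, gch2, the osteoblast genes, asah1b and the rows overlapping members. So were grna, cln3, atp6v1c1b and evpla. Alternatives were library size scaling, no low-count filter, a replicate block, DESeq2 1.42.0, osteoblast markers left out of the scaling, and each library left out. No sequences are shown.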

Additional observations from a re-analysis of the deposited data

How the results depend on the processing

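Of 99 recomputed log2 fold changes of members, 92 moved by less than the spread between replicates and 0 called values changed sign. The 7 that moved all came from library size scaling without TMM, which shifted the median of all genes to -0.47 and gave ctsd -2.51, lgmn -2.97, ctsz -2.59, ctsh -1.81, ctsba -1.49, ctsla -0.50 and ctsa -1.13; relative to that shift ctsla stayed near 0. Over all settings ctsla ran from -0.50 to 0.05 and ctsf from -0.75 to 0.84, so neither has a settled sign. The number of genes called was 78 (16 higher, 62 lower) and became 185 with library size only (12 higher, 173 lower), 557 with no low-count filter (156 higher, 401 lower), 626 with DESeq2 (194 higher, 432 lower) and 134 with the replicate block (47 higher, 87 lower), and leaving out 1 library gave 22 to 96. Calls among members, 2 in the edgeR fit, were 5, 5, 6 and 4 under the same 4 settings and 0 to 2 with a library left out. Calls among other lysosomal genes, 5 in the edgeR fit, were 11 with library size only, 13 with no filter, 15 with DESeq2 and 1 to 6 with a library left out. The cause of these changes was not tested. Same-numbered libraries of the gates had correlations of deviations of 0.18, 0.058 and 0.040 for replicates 1, 2 and 3. For each Geminin-positive library this was the highest of its correlations with the Geminin-negative libraries. The labels name no shared animal or batch behind a number, so the main fit used the gate alone. Whether the numbers pair the samples cannot be settled from these values. Geminin-negative replicate 3 correlated more with Geminin-positive replicate 2 (0.052) than with its own number. Pairs of neighbours in the order of levels that held in every library numbered 1 over all libraries, 3 within the Geminin-positive and 6 within the Geminin-negative libraries. An order by coding length was not run.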
